A study of Mus musculus with 11 samples.

Results

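The axon guidance ligands and receptors were the 68 genes, of 24062 listed in the count files, whose symbols name a semaphorin, plexin, neuropilin, Slit, Robo, ephrin, Eph receptor, netrin or Unc5 receptor. No measured value entered the choice. They comprised 20 semaphorins, 9 plexins, 2 neuropilins, 3 Slits, 4 Robos, 8 ephrins, 14 Eph receptors, 4 netrins and 4 Unc5 receptors. Their messages were measured by RNA-seq in 11 libraries of cultured mesenchymal cells from mouse lungs at embryonic day 15, a stage when the airways are still branching within loose mesenchyme. They were adherent, passaged cultures and not fresh tissue. Per the labels, 4 libraries were Sp3+/+, 4 were Sp3+/- and 3 were Sp3-/-, which lack both copies of the gene for the zinc finger transcription factor Sp3. No treatment was given, and the embryos came from matings of Sp3+/- mice. The labels do not say whether each library came from a separate embryo, so p-values measure only the spread between these libraries.

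These families are signals between neighbouring cells that steer migration, adhesion and the shape of the cytoskeleton, and they were first studied in growing axons. Semaphorins signal through plexins, with neuropilins as co-receptors for the secreted class 3 semaphorins, whereas Slits signal through Robos and netrins through Dcc and Unc5 receptors. Ephrins stay on the cell surface and activate Eph receptor tyrosine kinases on the cell they touch. In lung the same molecules take part in airway branching and vessel growth. Sp3 binds GC boxes in promoters and can activate or repress transcription.

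Mean Sp3 followed the labels, at 6.38 ± 0.35 log2 CPM (mean ± SD, n = 4) in Sp3+/+, 5.91 ± 0.19 (n = 4) in Sp3+/- and 4.10 ± 0.18 (n = 3) in Sp3-/- libraries (CPM, counts scaled to library size). Single Sp3+/+ (5.94 to 6.75) and Sp3+/- libraries (5.71 to 6.15) overlapped. The Sp3-/- libraries lay below both but still held reads on Sp3 (3.89 to 4.23). Reads on genes ranged from 9849111 in Sp3-/- library 697-5 to 59297495, with a median of 34968482. Library titles end in no suffix, 2 or 3, which the sources used here do not explain. The 3 Sp3-/- libraries have none, as do Sp3+/+ library 468-4 and Sp3+/- library 697-4, so genotype and suffix can barely be told apart. On the first principal component these 2 Sp3-carrying libraries lay at 17.3 and 9.62, between the other 6 (-37.5 to -24.7) and the Sp3-/- libraries (38.6 to 67.0). Results are therefore set beside a fit with the suffix as a covariate or without these libraries where that changed it. The suffix estimate itself rests on these 2 libraries, so a covariate fit and a fit without 1 of them are not independent. The 12 lung mesenchyme markers summed to 6312 to 19681 CPM in the 11 libraries. Col1a1, Col1a2 and Vim led, at means of 12.6, 12.4 and 11.4 log2 CPM, whereas Meox2 was near the detection limit (-2.75). Of the 11 tested in Sp3-/- against Sp3+/+ libraries, 9 were lower and 2 higher, with 4 called lower and 1 higher. The summed smooth muscle and pericyte lists were lower in each Sp3-/- than in each Sp3+/+ library. The mesothelial, lymphatic endothelial, epithelial and erythroid sums were higher. Single genes differed, as lymphatic Pdpn averaged 7.62 log2 CPM in Sp3+/+ and 8.61 in Sp3-/-, but Flt4 fell from 5.66 to 4.37. Of 10 epithelial genes tested 6 were higher and 4 lower, and 6 of 7 erythroid genes stayed below 1 CPM. The lung mesenchyme, macrophage, endothelial, neuronal and Schwann and proliferation sums overlapped. The neuronal and Schwann list summed to 134 CPM in 468-4 and to 20.9 to 48.9 in the others, and its part in the 468-4 values was not tested. The 13 macrophage genes measured summed to 621 to 3305 CPM in Sp3+/+, 377 to 3096 in Sp3+/- and 3173 to 11567 in Sp3-/- libraries, with 468-4 and 697-4 the highest of their genotypes. The 8 smooth muscle genes summed to 11849 to 25555, 14712 to 21162 and 4208 to 5166 CPM, the 6 pericyte genes to 97.0 to 189, 89.3 to 230.4 and 52.1 to 69.3 CPM, and the 6 mesothelial genes measured to 696 to 1665, 1353 to 2390 and 2079 to 5614 CPM. In bulk RNA, fewer cells of a type and less RNA per cell cannot be told apart, which applies to every value that follows.

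Of the 68 genes, 61 passed a filter of CPM above 1 in at least 1 library. The 7 that did not reached at most 27 counts in any library. Epha10 and Ntn5 had no more than 3 counts in every library, and the other 5 were Epha6, Epha8, Ephb1, Sema3g and Sema5b. Levels of the 61 spanned a wide range. Per kb of transcript the most abundant was Plxnb2, a receptor for class 4 semaphorins, with a mean of 113 CPM per kb over the 11 libraries. In the other families the leading members were Sema3c (77.0 CPM per kb), Nrp1 (55.7), Unc5b (52.4), Slit2 (43.0), Epha2 (22.2), Efnb2 (20.01), Robo1 (7.44) and Ntn4 (7.42). Single members made up most of several families. Unc5b held 89.4% of the family's summed CPM per kb, Robo1 85.2%, Ntn4 69.6%, Slit2 63.5%, Nrp1 56.8% and Plxnb2 56.6%, whereas Sema3c (35.9%), Efnb2 (30.9%) and Epha2 (26.6%) shared theirs with close followers. The culture carried ligand and receptor messages of each pathway. Dcc, the classical netrin receptor, was low, at a mean of 0.56 log2 CPM in Sp3+/+ and 0.84 in Sp3+/- libraries (at most 167 counts). In Sp3-/- libraries it was near the detection limit, at -1.89.

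**Figure D1:**
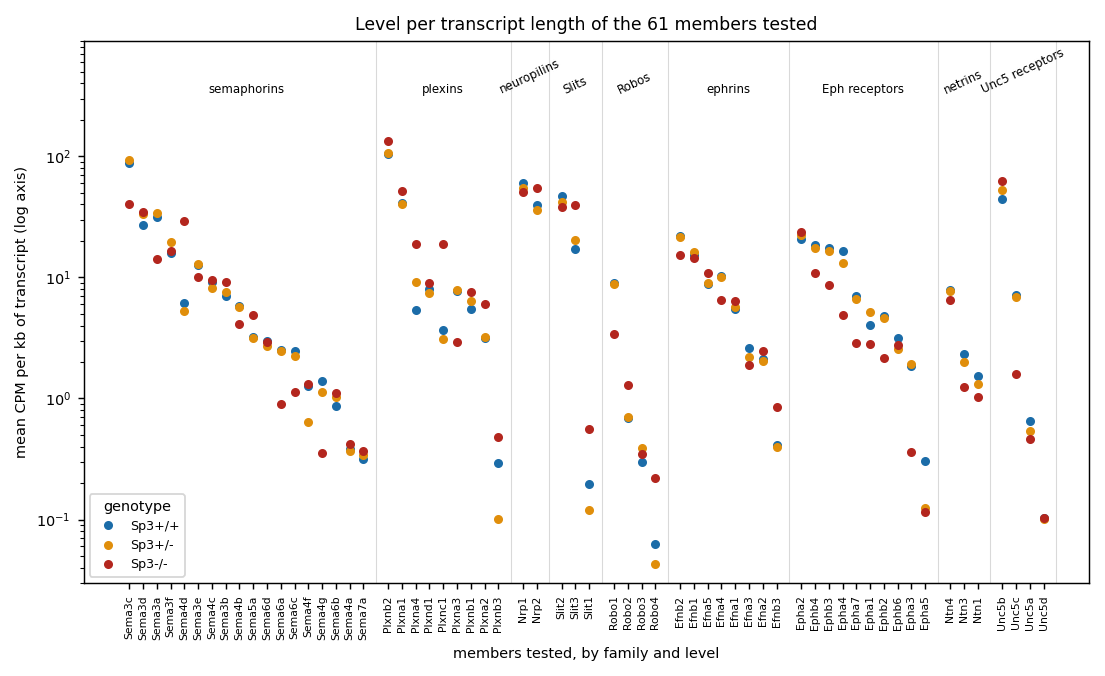
Mean CPM per kb of transcript (log axis) of the 61 members tested, by family and in falling order, with 1 point per genotype (n = 4 Sp3+/+, 4 Sp3+/- and 3 Sp3-/- libraries). Plxnb2 stands at the top with 104, 107 and 134 CPM per kb, and the 3 genotypes lie close together for most members.

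Summed per kb, plexins were higher and Robos and Eph receptors lower in Sp3-/- than in every other library. Plexin messages summed to 172 to 192 CPM per kb over the 8 Sp3+/+ and Sp3+/- libraries and 240 to 264 in the 3 Sp3-/- libraries, and the mean rose from Sp3+/+ to Sp3-/- by the most in Plxnb2 (104 to 134 CPM per kb), Plxnc1 (3.66 to 18.8) and Plxna4 (5.39 to 18.7). Robo messages summed to 7.90 to 12.3 and 4.92 to 5.73 CPM per kb, nearly all of it Robo1. Eph receptors summed to 73.0 to 105.5 in the Sp3-carrying libraries and 48.5 to 72.3 in Sp3-/-. This family nearly overlapped, since 468-4, which has no suffix, read 73.0 and Sp3-/- library 685-1 read 72.3. Semaphorins were also lower, at 202 to 275 against 175 to 191 CPM per kb. Slits, ephrins, netrins, neuropilins and Unc5 receptors overlapped between genotypes. These sums were not tested.

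Between Sp3-/- and Sp3+/+ libraries, 16 of the 61 members tested changed at an adjusted p below 0.05, 5 higher and 11 lower (edgeR quasi-likelihood test, Benjamini-Hochberg over all genes). The same test called 18.5% of all 14025 genes, 8.76% higher and 9.77% lower, against 26.2% of the members. The median log2 fold change was -0.04 over the members and -0.003 over all genes, and 30 members had positive and 31 negative values. All 11 members called lower lay below each of the 8 Sp3+/+ and Sp3+/- libraries in every Sp3-/- library, and 3 of the 5 called higher lay above them. Calls and separation rest on the same libraries, so the count over all members is set beside that over all genes. Of the 61 members tested, 15 separated the 3 Sp3-/- from the other 8 libraries, 4 higher and 11 lower. This was near the 24.1% of all genes tested. From Sp3+/+ alone 17 members separated (5 higher and 12 lower), beside 31.6% of all genes (14.9% higher and 16.7% lower). The number of calls rested on single libraries. It was 26 without 468-4, 12 without 685-1, 6 without 685-2, 5 without 697-1, 5 without 697-3, 10 without 697-5 and 0 without 697-2, and the share of all genes called moved with it (29.9%, 16%, 6.39%, 5.48%, 5.74%, 10.1% and 2.01%). With the title suffix as a covariate 7 members were called, 1 higher and 6 lower, against 9.41% of all genes.

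**Figure D2:**
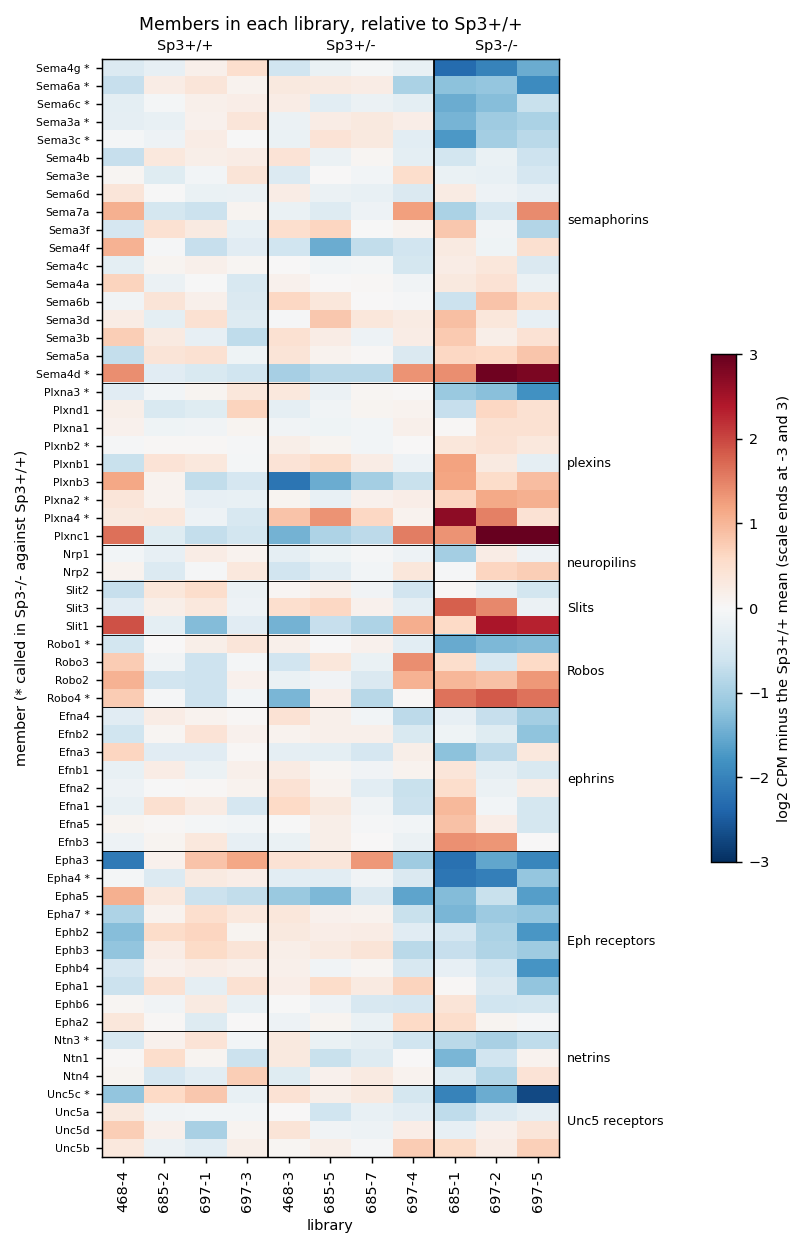
Difference in log2 CPM from the Sp3+/+ mean for the 61 members tested (rows, by family) in the 11 libraries (columns, by genotype), where blue is lower and red higher, the colour scale ends at -3 and 3, and an asterisk marks the 16 called in Sp3-/- against Sp3+/+. The blue rows of the Sp3-/- columns include Sema4g, Sema3a, Plxna3, Robo1 and Epha4, and Sp3+/+ library 468-4 and Sp3+/- library 697-4 share the red of Sema4d and Plxnc1 with the Sp3-/- columns.

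Values in single libraries are given in a fixed order, which is 468-4, 685-2, 697-1 and 697-3 for Sp3+/+, 468-3, 685-5, 685-7 and 697-4 for Sp3+/-, and 685-1, 697-2 and 697-5 for Sp3-/-. Among the ligands, the secreted class 3 semaphorins Sema3a and Sema3c were lower in Sp3-/- cells. Sema3a repels axons and endothelial cells through Nrp1 and class A plexins. It read 7.59, 7.62, 7.97 and 8.21 log2 CPM in Sp3+/+ libraries, 7.68, 8.07, 8.14 and 8.05 in Sp3+/- and 6.45, 6.79 and 6.89 in Sp3-/-. All 3 Sp3-/- libraries were below all 8 others, with a log2 fold change against Sp3+/+ of -1.14 (SE 0.19, edgeR adjusted p = 0.0143), a level 2.21-fold lower. Sema3c, which guides outflow tract and lung development and was the most abundant semaphorin, read 8.97, 8.87, 9.26 and 9.02 in Sp3+/+, 8.83, 9.45, 9.32 and 8.71 in Sp3+/- and 7.31, 8.0 and 8.22 log2 CPM in Sp3-/-. Here too the Sp3-/- libraries did not overlap the rest, with a log2 fold change of -1.14 (SE 0.23, edgeR adjusted p = 0.0203). The other 4 class 3 members tested (Sema3b, Sema3d, Sema3e and Sema3f) had log2 fold changes of -0.32 to 0.38 and did not pass the test. The call on Sema3a was lost only without 697-2 (edgeR adjusted p = 0.0558), and that on Sema3c without 697-1, 697-2 or 697-3 (up to 0.0667) and with the suffix covariate (-0.89, adjusted p = 0.0712).

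Among the membrane-bound semaphorins 3 were lower and 1 higher. Sema4g, a class 4 member at a low level, read 2.23, 2.39, 2.79 and 3.15 log2 CPM in Sp3+/+, 2.05, 2.43, 2.59 and 2.42 in Sp3+/- and 0.33, 0.63 and 1.15 in Sp3-/- libraries. The genotypes lacking Sp3 and carrying it did not overlap, and the fitted level was 4.06-fold lower (log2 fold change -2.02, SE 0.33, edgeR adjusted p = 0.0132). Sema6a and Sema6c, class 6 members that bind class A plexins, averaged 3.54 ± 0.47 and 3.26 ± 0.23 log2 CPM in Sp3+/+ (n = 4) against 2.11 ± 0.40 and 2.11 ± 0.43 in Sp3-/- (n = 3). Their log2 fold changes were -1.43 (SE 0.31, edgeR adjusted p = 0.0242) and -1.15 (SE 0.25, adjusted p = 0.0255). The 2 libraries without a suffix set Sema6a apart from Sema6c. For Sema6a they read 2.85 and 2.59, near the Sp3-/- range of 1.65 to 2.39, and the suffix covariate left -0.58 (adjusted p = 0.124). For Sema6c the covariate left -0.99 (adjusted p = 0.0473). The Sema4g call was lost only without 697-2 (adjusted p = 0.0609), whereas those of Sema6a and Sema6c were lost without 685-2, 697-1, 697-2 or 697-3, and that of Sema6a also without 697-5 (up to 0.0715 and 0.0995).

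Sema4d, a class 4 semaphorin of immune cells that binds Plxnb1, was the semaphorin with the largest rise. It read 5.92, 4.17, 4.07 and 3.92 log2 CPM in Sp3+/+, 3.53, 3.70, 3.72 and 5.86 in Sp3+/- and 5.91, 7.45 and 7.34 in Sp3-/- libraries. The Sp3+/+ library 468-4 and the Sp3-/- library 685-1 overlapped at 5.92 and 5.91. In the fit Sema4d rose by 2.27 on the log2 scale (SE 0.60, edgeR adjusted p = 0.0401), 1.02 (adjusted p = 0.145) with the suffix covariate and 3.00 (adjusted p = 0.00528) without 468-4. The receptor Plxnc1, also known from immune cells, had a like pattern among the libraries, at 6.05, 4.03, 3.67 and 3.85 log2 CPM in Sp3+/+, 2.98, 3.48, 3.62 and 5.94 in Sp3+/- and 5.75, 7.5 and 7.56 in Sp3-/-. Its log2 fold change of 2.37 did not pass the test (SE 0.71, edgeR adjusted p = 0.0553), but did without 468-4 (3.30, adjusted p = 0.00593). Both genes were highest in the 5 libraries with the highest macrophage sums. All 13 macrophage genes measured had higher means in Sp3-/- than in Sp3+/+ libraries and 7 were called, and none of the 13 was at 0 in all libraries. Their part in the Sema4d and Plxnc1 values was not tested. Leaving out 685-2, 697-1, 697-2, 697-3 or 697-5 each took the call from Sema4d (adjusted p up to 0.130).

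**Figure D3:**
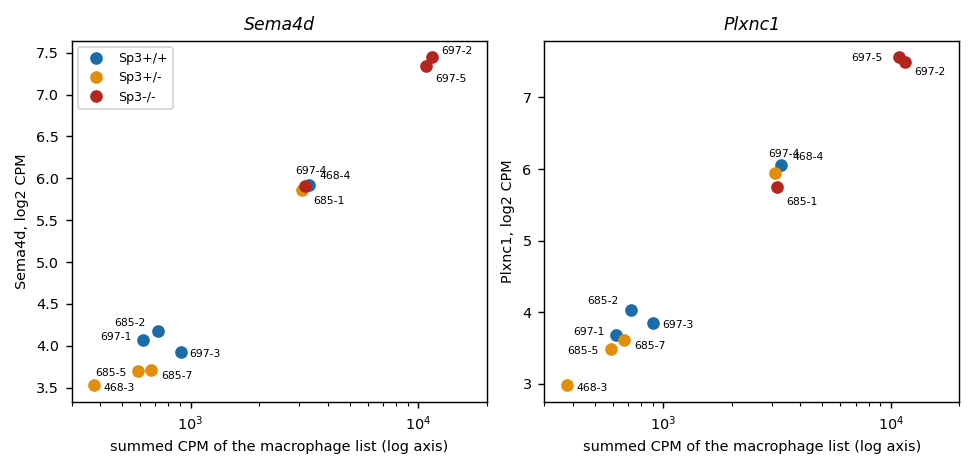
Sema4d (left) and Plxnc1 (right) in log2 CPM against the summed CPM of the macrophage list (log axis), with 1 labelled point per library and colours for genotype. In both panels 468-4, 697-4 and 685-1 lie together between the other Sp3-carrying libraries and the Sp3-/- libraries 697-2 and 697-5.

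Among the receptors of the semaphorins, the class A plexins moved in opposite directions. Plxna3, the plexin partner of neuropilins for several class 3 semaphorins, read 5.38, 5.62, 5.79 and 6.06 log2 CPM in Sp3+/+, 6.03, 5.53, 5.76 and 5.74 in Sp3+/- and 4.59, 4.45 and 3.89 in Sp3-/-. No Sp3-/- library reached the lowest of the others. It had a log2 fold change of -1.38 (SE 0.22, edgeR adjusted p = 0.0128), a level 2.61-fold lower, and -1.23 (adjusted p = 0.0213) with the suffix covariate. Its paralog Plxna2 was higher instead, at 5.48, 5.22, 4.85 and 4.89 in Sp3+/+, 5.18, 4.89, 5.25 and 5.31 in Sp3+/- and 5.75, 6.25 and 6.17 log2 CPM in Sp3-/-. The groups again did not overlap (log2 fold change 0.95, SE 0.19, edgeR adjusted p = 0.0215). Per kb, mean Plxna3 exceeded mean Plxna2 in Sp3+/+ cells (7.64 against 3.17 CPM per kb), and Plxna2 exceeded Plxna3 in Sp3-/- cells (6.08 against 2.91). Plxna1, the most abundant class A plexin, changed by 0.34 on the log2 scale (SE 0.15) and did not pass the test (adjusted p = 0.140). The call on Plxna3 was lost only without 697-2 (adjusted p = 0.0545), and that on Plxna2 without 685-2, 697-1, 697-2, 697-3 or 697-5 (up to 0.0837) and with the suffix covariate (0.68, adjusted p = 0.0672).

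Plxna4, another class A plexin, differed widely among the Sp3-/- libraries, with 6.38, 6.41, 5.94 and 5.62 log2 CPM in Sp3+/+, 6.93, 7.43, 6.72 and 6.19 in Sp3+/- and 8.78, 7.60 and 6.53 in Sp3-/-. Library 685-1 was the highest, and 697-5 lay among the Sp3+/- values. Its log2 fold change was 1.80 (SE 0.47, edgeR adjusted p = 0.0402), lost without 685-1, 685-2, 697-1, 697-2 or 697-3 (adjusted p up to 0.105) and with the suffix covariate (1.93, adjusted p = 0.0951). Plxnb2 rose little but evenly, from 9.44 ± 0.04 log2 CPM in Sp3+/+ (n = 4) to 9.81 ± 0.06 in Sp3-/- (n = 3), with Sp3+/- at 9.49 ± 0.11 (n = 4). The 3 Sp3-/- libraries read 9.78, 9.87 and 9.77, above the highest other library at 9.61. The level was 1.29-fold higher (log2 fold change 0.37, SE 0.10, edgeR adjusted p = 0.0390), nearly unchanged by the suffix covariate (0.38, adjusted p = 0.0584), and its call was lost when any library but 468-4 was left out (up to 0.144). Of the remaining plexins, Plxnb1, Plxnb3, Plxnd1 and Plxnc1 did not pass. Without 468-4 Plxnb3 was called higher (1.32, edgeR adjusted p = 0.0266), and the suffix covariate left 0.002 (adjusted p = 0.999). The neuropilins did not pass, with Nrp1 at 8.27 ± 0.21 log2 CPM in Sp3+/+ and 7.95 ± 0.64 in Sp3-/- and Nrp2 at 8.04 ± 0.31 and 8.49 ± 0.42 (n = 4 and 3).

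**Figure D4:**
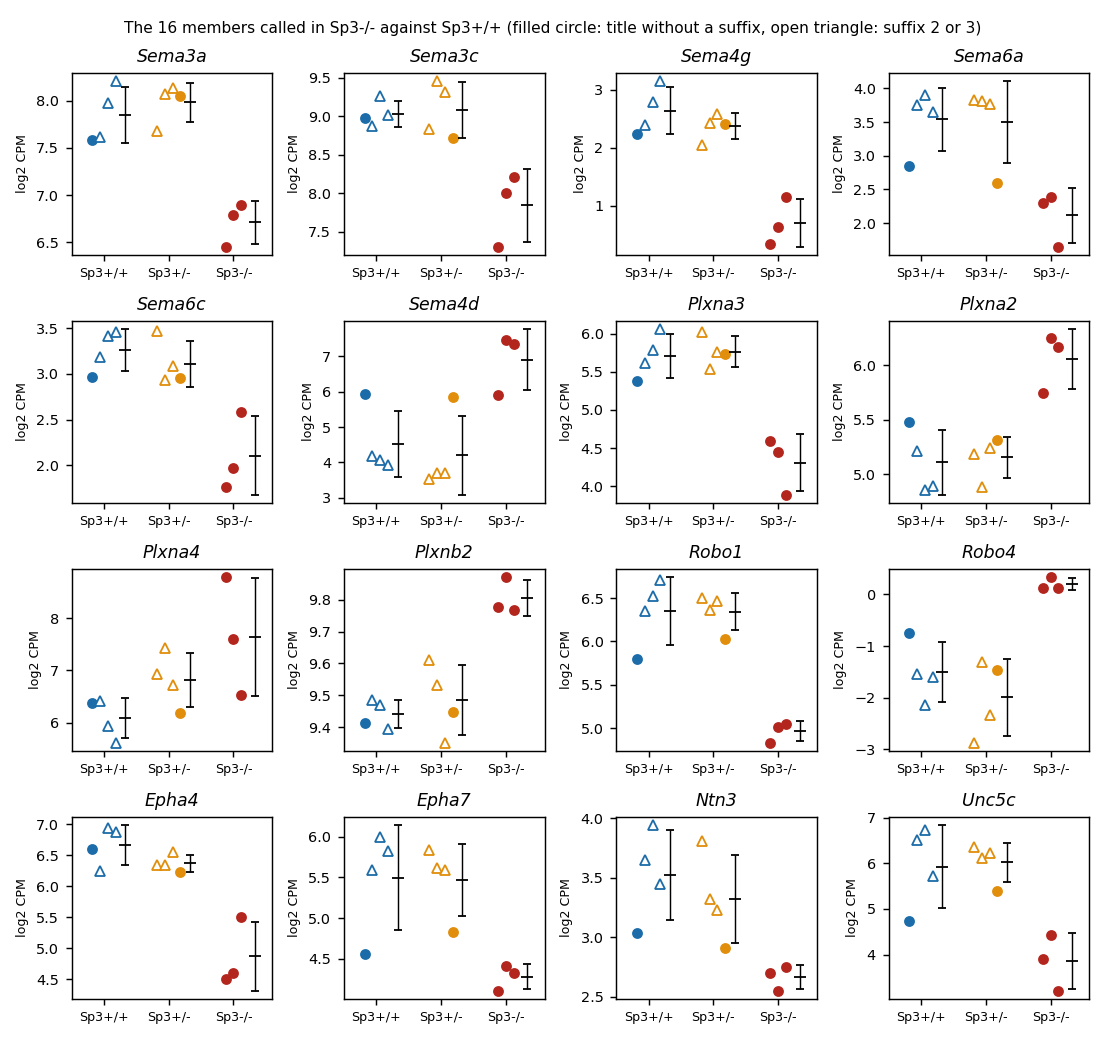
Log2 CPM of the 16 members called in Sp3-/- against Sp3+/+, with 1 point per library, filled circles for titles without a suffix and open triangles for suffix 2 or 3, and a bar for the mean and SD of each genotype (n = 4, 4 and 3). Robo1, Plxna3, Sema4g, Epha4 and Sema3a separate the Sp3-/- libraries from all 8 others, whereas Sema4d overlaps through 468-4.

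Robo1 was the member with the lowest p-value, while its ligands the Slits did not pass the test. Robo1, the main Slit receptor of these cells, read 5.80, 6.36, 6.53 and 6.71 log2 CPM in Sp3+/+, 6.5, 6.36, 6.47 and 6.03 in Sp3+/- and 4.83, 5.01 and 5.05 in Sp3-/- libraries. The Sp3-/- libraries lay close together (SD 0.12, against 0.39 in Sp3+/+) and did not overlap the rest. Robo1 thus had a log2 fold change of -1.42 (SE 0.22, edgeR adjusted p = 0.0114), a level 2.67-fold lower. The suffix covariate left -0.97 (adjusted p = 0.00867), and of the libraries only leaving out 697-2 took the call (adjusted p = 0.0528). Robo4, the Robo of endothelial cells, was higher at a very low level. It had 19, 4, 4 and 9 counts in Sp3+/+ libraries, 1, 20, 6 and 6 in Sp3+/- and 37, 54 and 10 in Sp3-/-, which gave means of -1.50, -2.0 and 0.19 log2 CPM (log2 fold change 1.77, SE 0.43, edgeR adjusted p = 0.0330). Leaving out any library but 468-4 took the call (up to 0.123), and the suffix covariate left 1.25 (adjusted p = 0.133). The 12 endothelial genes summed to 44.9 to 107, 54.3 to 92.2 and 90.3 to 134 CPM in Sp3+/+, Sp3+/- and Sp3-/- libraries, and their part in the Robo4 value was not tested. Robo2 and Robo3 did not pass. Without 468-4 Robo2 was called higher (1.37, edgeR adjusted p = 0.0109), and the suffix covariate left 0.03 (adjusted p = 0.959).

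Slit2 was the most abundant Slit at 8.80 ± 0.55 log2 CPM in Sp3+/+ (n = 4) and 8.55 ± 0.29 in Sp3-/- (n = 3). Its log2 fold change of -0.31 (SE 0.30, edgeR adjusted p = 0.486) turned to 0.34 with the suffix covariate (adjusted p = 0.416). Slit3 read 6.88, 7.40, 7.54 and 7.09 log2 CPM in Sp3+/+ and 9.02, 8.67 and 7.05 in Sp3-/-, where 697-5 stayed within the Sp3+/+ range and the test was not passed (log2 fold change 1.22, SE 0.41, adjusted p = 0.0758). DESeq2 called Slit3, and Slit1 did not pass in either tool. Without 468-4 Slit1 was called higher (2.72, edgeR adjusted p = 0.0201), and the suffix covariate left 0.22 (adjusted p = 0.831).

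Between Sp3-/- and Sp3+/+ libraries edgeR called 0 of the 8 ephrins, with 2 at an unadjusted p below 0.05. Without 468-4 it called Efna4 lower (-0.72, adjusted p = 0.0360), and the suffix covariate left -0.13 (adjusted p = 0.732). Plain limma-voom also called 0, but with a consensus correlation within the first title number it called 1, Efnb3. DESeq2 called 2, Efna4 and Efnb3. Efnb2, an ephrin of arterial endothelium and mesenchyme and the most abundant here, averaged 6.75 ± 0.42 log2 CPM in Sp3+/+ and 6.18 ± 0.57 in Sp3-/- (log2 fold change -0.53, SE 0.31, edgeR adjusted p = 0.246). It was 0.03 once the suffix entered the fit (adjusted p = 0.958). Of the Eph receptors, 2 of the 10 tested changed, a share near the 18.5% of all genes. The family's log2 fold changes were negative in 9 of the 10, with a median of -1.07 beside -0.003 over all genes. With the suffix covariate most of them shrank. Epha4 and Epha5 were then at -1.65 and -1.70, and the others tested ran from -0.46 (Epha7) to 0.16 (Ephb3). Epha4, which binds ephrins of both classes, read 6.6, 6.25, 6.95 and 6.88 log2 CPM in Sp3+/+, 6.35, 6.35, 6.56 and 6.23 in Sp3+/- and 4.50, 4.61 and 5.5 in Sp3-/-. Its highest Sp3-/- library, 697-5, was still below all 8 others. The log2 fold change was -1.76 (SE 0.29, edgeR adjusted p = 0.0138), a level 3.39-fold lower, and -1.65 (adjusted p = 0.0209) with the suffix covariate. The call was lost only without 697-2 (adjusted p = 0.0598).

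Epha7, a receptor of class A ephrins, read 4.57, 5.59, 6.0 and 5.82 log2 CPM in Sp3+/+, 5.84, 5.61, 5.59 and 4.83 in Sp3+/- and 4.11, 4.41 and 4.32 in Sp3-/-. The groups did not overlap, but 468-4 and 697-4 were the nearest to the Sp3-/- values. The log2 fold change of -1.30 (SE 0.32, edgeR adjusted p = 0.0350) became -0.46 (adjusted p = 0.124) with the suffix covariate, and leaving out any library but 468-4 took the call (up to 0.104). Epha3 followed the same libraries, with 0.85 in 468-4 and 1.91 in 697-4 against 3.10 to 4.28 in the other Sp3-carrying libraries and 0.75 to 1.43 log2 CPM in Sp3-/-. It did not pass against Sp3+/+ (log2 fold change -2.32, SE 0.72, edgeR adjusted p = 0.0610), and the covariate left -0.12 (adjusted p = 0.886). Without 468-4, 5 of the 10 Eph receptors were called, all lower, against 29.9% of all genes. Epha2, the most abundant Eph receptor, read 6.34 ± 0.30 log2 CPM in Sp3+/+ and 6.52 ± 0.29 in Sp3-/- libraries. Its log2 fold change of 0.19 (SE 0.19) did not pass the test (adjusted p = 0.507) and was -0.21 with the covariate.

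Ntn3 was the only netrin called, and Unc5c the only Unc5 receptor. Ntn3 read 3.04, 3.65, 3.94 and 3.45 log2 CPM in Sp3+/+, 3.81, 3.32, 3.23 and 2.91 in Sp3+/- and 2.70, 2.55 and 2.75 in Sp3-/-. The gap to the nearest Sp3-carrying library, 697-4, was small. Ntn3 had a log2 fold change of -0.89 (SE 0.23, edgeR adjusted p = 0.0368), and -0.48 (adjusted p = 0.134) with the suffix covariate. Unc5c, which mediates repulsion by netrins, read 4.74, 6.52, 6.73 and 5.71 in Sp3+/+, 6.36, 6.11, 6.22 and 5.40 in Sp3+/- and 3.91, 4.44 and 3.21 log2 CPM in Sp3-/-. It had the lowest log2 fold change of all members called, -2.15 (SE 0.52, edgeR adjusted p = 0.0328), and library 468-4 was the closest to the Sp3-/- range. The covariate left -1.11 (adjusted p = 0.125). Both calls were lost when any library but 468-4 was left out (up to 0.129 and 0.0824). Ntn4, a netrin of basement membranes, and Unc5b, its family's leading member, did not pass, with log2 fold changes of -0.28 (SE 0.38) and 0.51 (SE 0.18). Without 468-4 Unc5b was called higher (0.61, edgeR adjusted p = 0.0413), and the suffix covariate left 0.11 (adjusted p = 0.767).

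**Figure D5:**
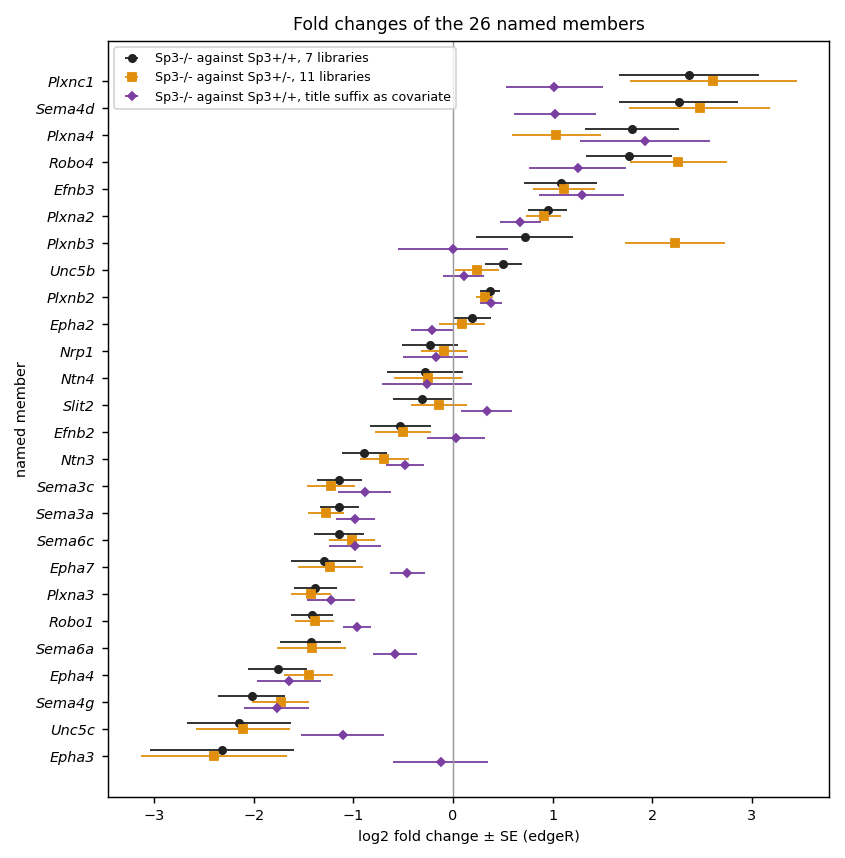
Log2 fold change ± SE (edgeR) of the 26 named members in Sp3-/- against Sp3+/+ (black circles, 7 libraries), Sp3-/- against Sp3+/- (orange squares, 11 libraries) and Sp3-/- against Sp3+/+ with the title suffix as a covariate (purple diamonds). Robo1, Plxna3, Epha4, Sema4g and Sema3a stay below 0 in all 3, whereas Epha3, Slit2 and Efnb2 move to or past 0 with the covariate.

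Between cells with 1 and 2 Sp3 copies no member was called. In Sp3+/- against Sp3+/+ libraries 0 of 61 members were called by edgeR, against 0.0% of all 14130 genes, and DESeq2 and limma-voom also called 0. At an unadjusted p below 0.05 there were 3 members, Plxnb3, Epha5 and Sema4f, named after their values were seen, with log2 fold changes of -1.52, -1.28 and -0.99 and an adjusted p of 1.00 each (edgeR). The 61 log2 fold changes had a median size of 0.11 and ran from -1.52 to 0.76. No member separated the 4 Sp3+/- from the 4 Sp3+/+ libraries, where 1.41% of all genes did (0.594% higher and 0.814% lower). The log2 fold changes were -0.03 for Robo1, 0.04 for Plxna3, 0.13 for Sema3a and 0.08 for Sema3c (SE 0.16 to 0.21), and -0.32 for Epha4 and -0.30 for Sema4g (SE 0.22 and 0.24). Sp3 itself changed by -0.49 (SE 0.16) and did not pass the test either.

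The Sp3+/- libraries gave a second set of controls for the Sp3-/- cells, although the same 3 Sp3-/- libraries served both comparisons. Against Sp3+/-, 18 of 61 members were called, 7 higher and 11 lower, with 25.5% of all genes called (13.0% higher and 12.5% lower). The 2 genotypes did not overlap for 21 members, 7 higher and 14 lower, as for 34.2% of all genes (16.2% higher and 18.0% lower). The log2 fold changes were -1.39 for Robo1, -1.43 for Plxna3, -1.27 for Sema3a, -1.22 for Sema3c, -1.73 for Sema4g and -1.45 for Epha4 (SE 0.18 to 0.29, edgeR adjusted p 0.00239 to 0.00761), beside -1.42, -1.38, -1.14, -1.14, -2.02 and -1.76 against Sp3+/+. None of these 6 lost its call here when any single library was left out, but Sema3c did with the suffix covariate (-1.05, adjusted p = 0.0649). Plxna2 (0.91, adjusted p = 0.00740) and Plxnb2 (0.32, adjusted p = 0.0242) were higher in this comparison as well, and both calls were lost with the covariate (0.67, adjusted p = 0.0909, and 0.37, adjusted p = 0.0775). The 4 members called here but not against Sp3+/+ were Plxnb3, Epha3, Efnb3 and Plxnc1. Plxnb3, a low-level class B plexin, read -1.51, -0.81, -0.33 and 0.01 log2 CPM in Sp3+/- and 1.87, 1.24 and 1.60 in Sp3-/-, while Sp3+/+ held 1.84, 0.78, -0.06 and 0.18 and overlapped the Sp3-/- values through 468-4. Its log2 fold change was 2.23 (SE 0.50, edgeR adjusted p = 0.0125). Efnb3, an ephrin at 0.52 ± 0.18 log2 CPM in Sp3+/- and 1.47 ± 0.77 in Sp3-/-, rose by 1.12 (SE 0.31, adjusted p = 0.0271) with 697-5 inside the Sp3+/- range at 0.58. Epha3 fell by 2.4 (SE 0.74, adjusted p = 0.0375) and Plxnc1 rose by 2.61 (SE 0.84, adjusted p = 0.0436). With the suffix covariate none of these 4 was called, at 1.22 for Plxnb3 (adjusted p = 0.119), -0.50 for Epha3 (adjusted p = 0.532), 1.27 for Efnb3 (adjusted p = 0.114) and 1.26 for Plxnc1 (adjusted p = 0.141). The call was lost for Epha3 without any library but 697-4 (up to 0.0982), for Efnb3 without 468-3, 685-1, 685-5, 685-7 or 697-2 (up to 0.107), for Plxnc1 without 468-3, 685-5, 685-7, 697-2 or 697-5 (up to 0.116) and for Plxnb2 without 685-5, 685-7 or 697-2 (up to 0.0915). With the covariate 6 members were called against 5.40% of all genes, 5 of them among the 18 (Robo1, Plxna3, Sema3a, Sema4g and Epha4), and without 697-4 there were 25 against 26.3%.

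Sema5a was outside the rule for named genes and is described after its values were seen, because it was the 1 member called higher with the suffix covariate in both comparisons. This semaphorin carries thrombospondin repeats. It read 4.34, 5.44, 5.5 and 4.91 log2 CPM in Sp3+/+, 5.43, 5.17, 5.08 and 4.62 in Sp3+/- and 5.67, 5.65 and 5.89 in Sp3-/-. The Sp3-/- libraries were above all others, and 468-4 and 697-4 were the lowest of their genotypes. Without the covariate the log2 fold change was 0.63 (SE 0.27, edgeR adjusted p = 0.133), and with it 1.23 (SE 0.21, adjusted p = 0.0144).

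Downstream of these receptors, 19 of the 50 intracellular effectors listed were called in Sp3-/- against Sp3+/+ libraries, 6 higher and 13 lower, beside the 18.5% of all genes. The largest falls were in Dpysl3 (log2 fold change -2.36), a collapsin response mediator in semaphorin signalling, in the guanine nucleotide exchange factor Kalrn (-1.46) and in the kinase Pak3 (-1.34). The largest rises were in Dpysl5 (2.11), the kinase Fes (1.54) and the exchange factor Vav3 (1.30). Their edgeR adjusted p-values ran from 0.00611 to 0.0378, all without the suffix covariate. Fes had a pattern like that of Sema4d, with 4.14 log2 CPM in 468-4 and 4.01 in 697-4. The other Sp3-carrying libraries held 2.88 to 3.31 and the Sp3-/- libraries 4.08 to 5.56. Vav3 was likewise highest of its genotype in 468-4 (3.33) and in 697-4 (3.15), and read 3.90 to 4.54 log2 CPM in Sp3-/-. The part of the macrophage genes in the Fes and Vav3 values was not tested. Fes overlapped between Sp3-/- and Sp3+/+ libraries, and the other 5 did not. These 2 genotypes did not overlap for 22 of the 50 effectors, 8 higher and 14 lower, beside 31.6% of all genes. Dpysl5 overlapped Sp3+/- libraries, at 2.16 to 3.86 log2 CPM in Sp3-/- and 1.32 to 2.49 in Sp3+/-. Of 24 other guidance ligands and receptors tested, Dcc (-2.69, adjusted p = 0.0331) and Lrig1 (-0.61, adjusted p = 0.0125) were called, both lower.

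Because Sp3 binds GC boxes, the 250 bases before the start of each gene were searched for GGGGCGGGG, a GC box, and for its inner core GGGCGG, on both strands. Every GC box also holds the core. RefSeq promoters (GRCm38.p6, 1 start per gene) were matched for 59 of the 68 members, and Efnb3, Ntn1, Plxna1, Plxna4, Sema3b, Sema3f, Sema6a, Slit1 and Unc5d were not matched. The core was present in 43 of the 59, where 32.9% of all 27018 promoters and 58.9% of those of genes tested held it. The GC box was present in 18 of the 59, against 10.5% and 19.7%. Among members called lower 7 of 10 held the core and 1 of 10 the box, among those called higher 2 of 4 and 1 of 4, and among members tested and not called 30 of 38 and 16 of 38. The windows of the 5 members called lower with the lowest p-values and of Plxna2, their counterpart among those called higher, are shown 5′ to 3′ because these 6 had the lowest p-values among the calls of their direction, which is not the same as the largest fold changes. Capitals mark the core on either strand (GGGCGG or CCGCCC).
Robo1 (chr16:72662899-72663148, plus strand): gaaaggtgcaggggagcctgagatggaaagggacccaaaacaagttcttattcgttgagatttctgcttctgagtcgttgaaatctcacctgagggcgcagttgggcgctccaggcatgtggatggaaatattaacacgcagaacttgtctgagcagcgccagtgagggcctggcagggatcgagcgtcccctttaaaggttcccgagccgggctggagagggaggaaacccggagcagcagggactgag
Plxna3 (chrX:74328816-74329065, plus strand): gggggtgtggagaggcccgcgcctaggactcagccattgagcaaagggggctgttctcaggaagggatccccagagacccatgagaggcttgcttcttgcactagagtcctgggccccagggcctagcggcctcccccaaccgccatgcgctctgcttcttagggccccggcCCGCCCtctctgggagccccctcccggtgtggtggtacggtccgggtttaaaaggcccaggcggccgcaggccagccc
Sema4g (chr19:44989094-44989343, plus strand): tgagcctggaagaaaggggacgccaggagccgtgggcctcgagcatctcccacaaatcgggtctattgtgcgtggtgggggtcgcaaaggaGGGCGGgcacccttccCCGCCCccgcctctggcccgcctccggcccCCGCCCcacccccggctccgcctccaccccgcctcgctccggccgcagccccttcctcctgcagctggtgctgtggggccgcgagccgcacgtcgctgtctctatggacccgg
Epha4 (chr1:77515089-77515338, minus strand): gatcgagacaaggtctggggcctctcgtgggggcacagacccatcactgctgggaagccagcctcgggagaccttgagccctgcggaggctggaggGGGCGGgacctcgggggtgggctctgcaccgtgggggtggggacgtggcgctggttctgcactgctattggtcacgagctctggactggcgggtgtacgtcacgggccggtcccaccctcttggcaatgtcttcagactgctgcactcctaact
Sema3a (chr5:13396534-13396783, plus strand): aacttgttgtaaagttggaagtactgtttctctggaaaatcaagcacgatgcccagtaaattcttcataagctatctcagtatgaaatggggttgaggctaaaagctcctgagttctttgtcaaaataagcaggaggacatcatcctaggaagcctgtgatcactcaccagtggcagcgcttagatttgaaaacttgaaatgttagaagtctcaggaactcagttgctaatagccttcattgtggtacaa
Plxna2 (chr1:194619579-194619828, plus strand): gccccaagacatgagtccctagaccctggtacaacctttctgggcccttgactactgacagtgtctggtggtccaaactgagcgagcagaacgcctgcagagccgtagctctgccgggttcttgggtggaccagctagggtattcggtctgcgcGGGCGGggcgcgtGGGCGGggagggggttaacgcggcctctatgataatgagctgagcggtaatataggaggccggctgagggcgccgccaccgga
Sema4g held 3 cores, 2 of them within GC boxes, Plxna2 held 2 cores, and Plxna3 and Epha4 held 1 each. The windows of Robo1 and Sema3a held neither motif. Both lie inside the spans RefSeq gives these genes (chr16:72027518-73047491 and chr5:13124822-13603485), so other starts of the same genes were not covered. The same holds for the windows of Plxna3 and Sema4g (spans chrX:74328290-74344689 and chr19:44988743-45003397). A match is a string of letters and not a measured binding site.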

How the data were processed

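Counts were measured by RNA-seq in 11 libraries, grouped by the genotype in the labels. The authors made TruSeq libraries, sequenced 50 bp single end reads, checked them with FastQC 0.10.1, aligned them to mm10 with STAR 2.4.5a and deposited htseq-count whole-number counts per gene symbol, with no normalization. The annotation and strand setting are not given in the sources used here, so reads of overlapping or antisense genes cannot be told apart. Reads the files tally outside genes, 38.4% to 40.9% of a library, did not enter.

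The test took genes whose CPM exceeded 1 in any library of the fit, and was run with edgeR 4.0.16 (TMM, robust glmQLFit, glmQLFTest) in R 4.3.3, with Benjamini-Hochberg adjustment over all genes tested and calls at 0.05. Sp3-/- against Sp3+/+ used 7 libraries, and comparisons with Sp3+/- used all 11. The SE is the fold change over the root of the F statistic. Levels are log2 CPM with a prior count of 2. Levels per kb used GENCODE canonical transcript lengths. No 2 libraries of a genotype agreed within counting noise (chi-square). Libraries sharing the first title number were checked as possible pairs and not used as such. Alternatives were limma-voom 3.58.1, DESeq2 1.42.0, other scalings, filters and library subsets. The script was tested on simulated data.

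Named were members called in any comparison, the most abundant per length of each family, members with at most 3 counts everywhere, at most 6 called genes of each other list, and Sp3. Members and lists were chosen with earlier results of these data known. The title suffix comes from the titles. The file name of 697-4 carries suffix 2, and its title none. All covariate fits used the title, and none was run with the suffix of the file name.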

Additional observations from a re-analysis of the deposited data

Results flagged for a closer look

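Within a genotype of 4 libraries, 5 of 52 sets of values for named members had a library far from the other 3. Chance flags about 1 in 20. All 5 concern the 2 Sp3-carrying libraries whose titles have no suffix. Sema4d read 5.92 log2 CPM in Sp3+/+ library 468-4, where the other 3 Sp3+/+ libraries read 3.92 to 4.17. It also stood apart in Sp3+/- library 697-4, at 5.86 against 3.53 to 3.72. Plxnc1 read 6.05 in 468-4 against 3.67 to 4.03. Sema6a read 2.59 in 697-4 against 3.76 to 3.83, and Efnb2 read 6.30 there against 6.85 to 6.90. The same 2 libraries had the highest macrophage sums of their genotypes, 3305 and 3096 CPM, and whether this bears on the values was not tested.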

How the results depend on the processing

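The count of 16 members called in Sp3-/- against Sp3+/+ stayed within 1.5 times under limma-voom (13, or 18 with a consensus correlation of 0.106), DESeq2 (24, against 30.6% of all genes), library size (16) or upper quartile scaling (15), no filter (13), filterByExpr (16) and all 11 libraries in 1 fit (19). It moved to 7 with the title suffix as a covariate, to 0 in the 5 libraries without a suffix (0.0% of all genes, with 8 members at an unadjusted p below 0.05 and the lone Sp3+/+ library assumed to vary like the others), and to 0 to 26 when single libraries were left out. With the first title number as a replicate block it was 26, against 28.7% of all genes, and 15 were among the 16. Correlations of the deviations of same-numbered libraries ran from -0.70 to 0.41 (median 0.11, over 14 pairs). All pairs numbered 685 were positive (0.14 to 0.38), and the lowest value was between 697-1 and 697-4, which differ in suffix. Because suffix varied within numbers, the check could not decide whether the numbers pair the libraries, and they were not used as pairs. Against Sp3+/- the count of 18 moved to 6 with the suffix covariate and to 11 to 25 when single libraries were left out, and the replicate block gave 19 (20.9% of all genes). The median log2 fold change of the members ran from -0.20 to -0.0049 when single libraries were left out. Sp3 kept its fold change without suffixed libraries (-2.43) but not its call (adjusted p = 0.275). The log2 fold change changed sign with the suffix covariate for Efnb2 (0.029), Epha2 (-0.21) and Slit2 (0.34), in the libraries without a suffix for Efnb2 (0.087), Epha2 (-0.14), Epha3 (0.24), Plxnb3 (-0.26) and Slit2 (0.45), without 685-1 for Epha2 (-0.0013, in a range to 0.31) and Nrp1 (0.034, in a range from -0.54), and without 697-3 for Ntn4 (0.032, in a range from -0.68), and none of these members was called in Sp3-/- against Sp3+/+. For single named members, 577 other values kept direction and side of the threshold, 150 lost their call and 18 gained one. The cause of these shifts was not tested. Depth limits Robo4, Plxnb3 and Efnb3 most.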
